A study of Mus musculus with 18 samples.

Results

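Mouse kidneys taken 48 h after D-galactosamine (GalN) were compared with kidneys of sham animals that had received saline, 3 arrays against 3, out of 18 arrays in 6 groups. Probe sets annotated to exactly 1 gene entered, which gave 18193 genes. A gene with several sets was represented by the brightest one, judged by the mean of all 18 arrays. Of the 18193 genes, 11990 lay above the array median in at least 3 of the 9 kidney arrays and were tested. The study measured liver and kidney of male C57BL6 mice of 20 g on the Affymetrix Mouse Genome 430 2.0 array, with kidney and liver groups at 48 h and at 24 h after an intraperitoneal dose of 4.5 g/kg GalN, and sham groups injected with saline.

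The sham animals were killed at 24 h and no sham group was made at 48 h, so treatment and time since injection cannot be told apart here. All organs were perfused in place with buffer and an RNA preservative before RNA was taken from minced whole kidney, so the values average over cortex and medulla and over all cell types. In such bulk samples, fewer cells of a type and less RNA per cell cannot be told apart. The submitters' design text speaks both of equal RNA amounts from the 3 mice of a condition and of an array for each animal, so p-values measure the spread between arrays, which may be partly technical. Values below are on the log2 scale of the deposited table and stand in the order of the labels' array letters A, B and C. Differences are 48 h minus sham with the standard error (SE) of the fit, 3 arrays a group.

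D-galactosamine is an amino sugar that hepatocytes take up and convert to UDP derivatives, which traps uridine nucleotides and blocks RNA and protein synthesis in the liver. It is used to produce acute liver failure, and liver failure in turn is known for disturbed kidney function with little structural damage. The kidney tubule handles salt, water, acid and organic ions in successive segments: the proximal tubule reclaims most solutes and secretes organic anions and cations, the thick limb and distal tubule take up sodium chloride, and the collecting duct sets the final sodium, water and acid content. The proximal tubule also burns fatty acids as its main fuel, and makes and degrades many amino acids.

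The arrays carried the kidney's own markers in both groups. Umod, the thick limb's uromodulin, was at 15.92, 15.93 and 15.94 at 48 h, against 15.97, 15.93 and 15.93 in sham. Slc34a1, the proximal phosphate transporter, was at 14.72, 14.73 and 14.70 at 48 h, against 14.49, 14.61 and 14.85 in sham. Rplp0, a ribosomal protein that the study also used to check its PCR control, was at 14.96, 15.02 and 15.01 at 48 h, against 14.97, 14.88 and 14.70 in sham. Neither Umod nor Slc34a1 nor Rplp0 passed the test (adjusted p = 0.949, 0.750 and 0.273). Other segment markers did, among them Egf, Cubn, Scnn1a and Aqp1, which were higher at 48 h, and Slc22a6, which was lower. Array medians over all probe sets were 2.36 to 2.38 in the 9 kidney arrays and 48.3% to 48.7% of values lay within 0.1 of the lowest value of the table, 2.21. Correlations between kidney arrays ran from 0.9938 to 0.9977 within a group and from 0.9903 to 0.9955 between groups.

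Of the 11990 genes tested, 332 passed the test at 48 h against sham (limma, Benjamini-Hochberg adjusted p under 0.05), which is 2.77% of those tested. There were 157 higher at 48 h (1.31%) and 175 lower (1.46%). The changes were mostly modest: the median size was 1.59-fold, and 76 genes differed at least 2-fold, 45 of them higher and 31 lower. In each of the 332 the 3 arrays at 48 h lay beyond all 3 sham arrays, as they did for 1378 tested genes upwards (11.5%) and 1876 downwards (15.6%) whether or not they passed. At an unadjusted p under 0.05 there were 2326 genes. The number of calls depended on single arrays. It was 31 to 167 without 1 of the 48 h arrays, 29 to 189 without 1 of the sham arrays and 268 to 469 without 1 of the 24 h arrays, which help to estimate the spread. None of the 332 changed direction in these fits. Of the 332, 17 were called in every one of these 9 fits, and for the other genes named below the highest adjusted p of the 9 fits is given with the array left out. Of the 801 genes tested on the 49 lists used here, 55 passed (6.87%), and the lists were drawn up with results of these data known. Uncalled list members given below for contrast, other than a fixed panel, were chosen after their values were seen.

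**Figure D1:**
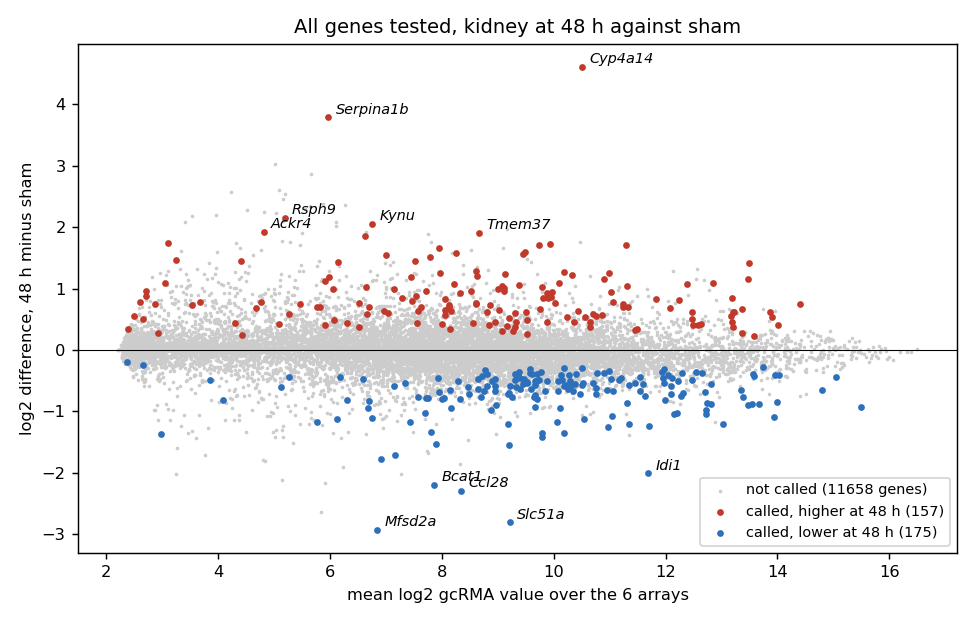
Log2 difference (48 h minus sham) against the mean log2 gcRMA value over the 6 arrays for the 11990 genes tested. Red points are the 157 genes called higher at 48 h, blue points the 175 called lower and grey points the rest; Cyp4a14 and Serpina1b stand above all other points, and Mfsd2a and Slc51a are the lowest called.

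**Figure D2:**
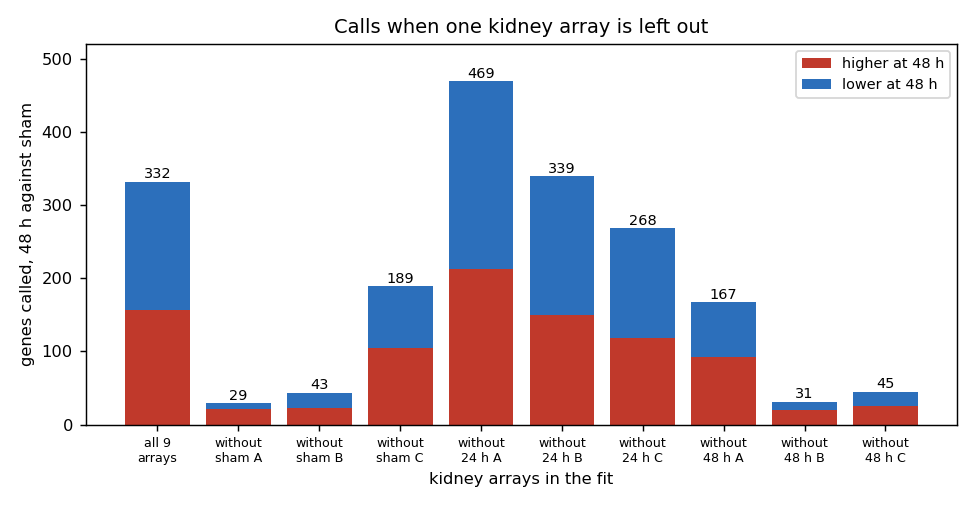
Number of genes called for 48 h against sham with all 9 kidney arrays (332) and with each array left out in turn, split by direction. Counts fall to between 29 and 189 when a sham or 48 h array is missing and lie between 268 and 469 when a 24 h array is missing.

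The largest rises were those of Cyp4a14 and Serpina1b. Cyp4a14 (chr4:115486200-115496158 in the RefSeq annotation of GRCm38.p6), a fatty acid omega-hydroxylase and a standard target of the nuclear receptor PPAR alpha, was at 13.75, 12.09 and 12.61 at 48 h, against 9.0, 7.29 and 8.33 in sham, a rise of 24.4-fold. The log2 difference was 4.61 ± 0.60 (SE, adjusted p = 0.0234). All 48 h arrays lay more than 3 units above the highest sham array, and the 24 h kidneys, at 11.22, 11.72 and 12.56, lay between those groups or within the 48 h range. Serpina1b (chr12:103728156-103738189), one of several near-identical mouse alpha-1-antitrypsin genes, was at 7.94, 7.85 and 7.82 at 48 h, against 4.11, 4.06 and 4.06 in sham, at least 13.9-fold higher, since 2 sham readings recur exactly and cannot be ranked. The log2 difference was 3.79 ± 0.14 (SE, adjusted p = 0.000232). It had the smallest adjusted p of all genes tested and stayed called without any 1 array, and the 24 h kidneys read 8.02, 8.60 and 8.25. A second probe set of the gene gave a difference of 3.77 (adjusted p = 0.00846). Probe sets for Serpina1b and Cyp4a14 may detect other members of their families, so which copy was measured is uncertain.

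**Figure D3:**
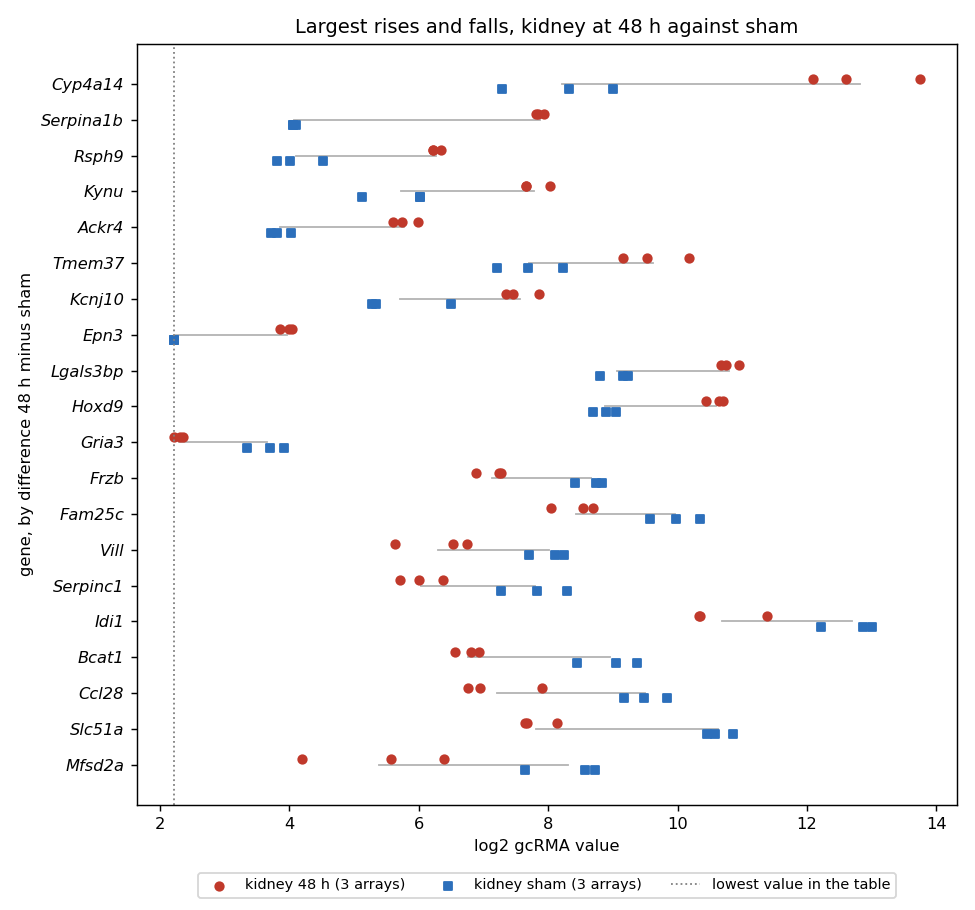
Log2 gcRMA values of the called genes with the 10 greatest increases and the 10 greatest decreases, unnamed clones and predicted genes left out, 3 arrays at 48 h (red circles) and 3 sham arrays (blue squares) per gene, with a grey line joining the group means and a dotted line at the lowest value in the table. The groups do not overlap for any of the 20 genes, and Epn3 in sham and Gria3 at 48 h lie at or near the lowest value.

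Serpina1b is also on the list of hepatocyte markers, of which 3 of 18 tested members were called, all higher, namely Serpina1b, Fgb and Fgg. Of the 18, 12 lay above 0 and 5 below, and the median was 0.06. All 48 h arrays lay above all sham arrays for 4 members and below them for 2. The shares over all genes tested were 1.31% called higher, 11.5% above all sham arrays and 15.6% below. Alb, the gene of albumin, was at 7.45, 8.04 and 7.81 at 48 h, against 8.08, 8.44 and 8.18 in sham, so every 48 h array lay below all sham arrays, and it did not pass (adjusted p = 0.258). The hepatocyte genes Cps1, F2, Hpx and Ahsg were among 6 of the 19 list members on the array that stayed within 1 unit of the table's lowest value on all 9 kidney arrays. The summed level of the hepatocyte list was 16.23, 16.43 and 16.39 in the 48 h kidneys and 16.22, 16.21 and 16.50 in the sham kidneys, on the log2 scale of the sum.

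The window before the start site of Serpina1b is shown because it had the smallest adjusted p and alpha-1-antitrypsin promoters are known to bind the factor HNF1. The 250 bases upstream of its RefSeq start are at chr12:103738190-103738439 (GRCm38.p6, minus strand), and capitals mark the only match on either strand to GTTAAT, part of that factor's recognition site. The same letters occur in 6.43% of the 32851 promoter windows of this length.
Serpina1b: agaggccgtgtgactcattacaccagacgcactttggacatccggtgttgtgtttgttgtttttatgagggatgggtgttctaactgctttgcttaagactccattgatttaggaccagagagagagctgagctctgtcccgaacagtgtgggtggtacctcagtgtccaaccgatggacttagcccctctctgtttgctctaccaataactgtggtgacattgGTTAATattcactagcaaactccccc
Such a match describes the letters alone.

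Kynu, Rsph9 and Ackr4 followed among the rises. Kynu, kynureninase of the tryptophan pathway, was at 8.02, 7.66 and 7.66 at 48 h, against 6.03, 6.03 and 5.12 in sham, and rose 4.17-fold (log2 difference 2.06 ± 0.25 SE, adjusted p = 0.0187). A reading recurs exactly among its sham arrays, so this fold is uncertain. Ackr4, a decoy receptor for the chemokines CCL19, CCL21 and CCL25, was at 5.73, 6.0 and 5.60 at 48 h, against 3.72, 4.03 and 3.81 in sham, with a log2 difference of 1.92 ± 0.14 (SE, adjusted p = 0.00454). Both were near the sham level in the 24 h kidneys, where Kynu read 6.04, 6.03 and 6.16 and Ackr4 3.69, 4.05 and 3.81, and 48 h minus 24 h was 1.71 ± 0.25 (SE, adjusted p = 0.0338) for Kynu and 1.93 ± 0.14 (SE, adjusted p = 0.00671) for Ackr4. Rsph9, a radial spoke protein of motile cilia, was at 6.23, 6.22 and 6.35 at 48 h, against 4.01, 3.80 and 4.52 in sham, a 4.45-fold rise (log2 difference 2.15 ± 0.34 SE, adjusted p = 0.0305). Lgals3bp, a secreted glycoprotein that binds galectin 3, was at 10.68, 10.95 and 10.74 at 48 h, against 9.16, 8.81 and 9.24 in sham and rose 3.30-fold. Hoxd9, a homeobox gene of the developing trunk and limb, read 10.70, 10.43 and 10.64 at 48 h, against 8.89, 8.70 and 9.04 in sham, 3.28-fold higher, and read 10.55, 10.65 and 10.76 at 24 h. Tmem37, Kcnj10 and Epn3 completed the 10. Kcnj10, the potassium channel Kir4.1 of the basolateral distal tubule, was at 7.36, 7.46 and 7.86 at 48 h, against 6.5, 5.34 and 5.28 in sham, and the spread within the sham group was more than 1 unit. Epn3, the endocytic adaptor epsin 3, was at 3.85, 4.05 and 3.99 in the 48 h kidneys and next to the table's lowest value in all sham kidneys (2.22, 2.22 and 2.22), and so rose at least 3.34-fold. With 1 kidney array left out, Lgals3bp, Hoxd9 and Ackr4 remained called, while the adjusted p reached 0.0701 without 48 h array B for Kynu and 0.103 without sham array A for Rsph9. It was 0.114 without sham array B for Tmem37 and 0.120 without sham array B for Kcnj10. The value was 0.0586 without sham array A for Epn3. For Cyp4a14 it reached 0.0701 without sham array B.

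Among the falls, Mfsd2a and Slc51a were the deepest. Mfsd2a (chr4:122946850-122961194), the carrier that brings lysophosphatidylcholine with docosahexaenoic acid into brain endothelium, was at 5.57, 6.39 and 4.19 at 48 h, against 8.72, 7.64 and 8.57 in sham, a log2 difference of -2.93 ± 0.58 (SE, adjusted p = 0.0499). The 24 h kidneys read 8.64, 8.82 and 9.43, and 48 h minus 24 h was -3.58 ± 0.58 (SE, adjusted p = 0.0388). The adjusted p against sham sat at the threshold. No fit that left out an array called it, the highest value being 0.148 without sham array A. Ccl28, a chemokine of mucosal epithelia, was at 6.76, 6.95 and 7.91 at 48 h, against 9.48, 9.17 and 9.84 in sham, 4.89-fold lower. Its other probe sets gave -0.71 (adjusted p = 0.167) and -3.86 (adjusted p = 0.118). Bcat1, the cytosolic aminotransferase for branched-chain amino acids, was at 6.56, 6.81 and 6.93 at 48 h, against 9.05, 8.45 and 9.38 in sham, 4.59-fold lower. At 24 h it read 8.83, 8.13 and 8.61, and 48 h minus 24 h was -1.76 ± 0.27 (SE, adjusted p = 0.0355). A second, dim Bcat1 set gave -1.14 (adjusted p = 0.191). Frzb, a secreted antagonist of Wnt ligands, was at 7.23, 7.27 and 6.89 at 48 h, against 8.74, 8.41 and 8.83 in sham, 2.88-fold lower. A second Frzb set gave a larger fall, -3.21 (adjusted p = 0.00552), against -1.53 for the reported set. At 24 h Frzb read 8.07, 8.07 and 8.56, and 48 h minus 24 h was -1.10 ± 0.19 (SE, adjusted p = 0.0431). Serpinc1, antithrombin, was at 5.72, 6.38 and 6.01 at 48 h, against 7.83, 8.30 and 7.27 in sham, 3.40-fold lower. Vill and Fam25c were 3.29-fold and 2.91-fold lower. Gria3, an AMPA receptor subunit, was near the table's lowest value in all 48 h kidneys (2.22, 2.36 and 2.31) and at 3.71, 3.35 and 3.92 in the sham kidneys, and so fell at least 2.57-fold. Left-out arrays took the adjusted p to 0.0860 without sham array A for Ccl28 and 0.0759 without 48 h array B for Bcat1. It was 0.0701 without 48 h array B for Frzb and 0.105 without sham array A for Serpinc1. The value was 0.136 without sham array B for Vill and 0.108 without sham array B for Fam25c. It reached 0.130 without sham array A for Gria3.

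The organic anion and cation transporters of the proximal tubule were the list with the most called members: 6 of 27 tested fell, none rose, and the median over the 27 was -0.19 against 0 over all genes tested. Over all genes tested 1.46% were called lower. Slc51a (chr16:32475578-32487879), the alpha subunit of the basolateral exporter of bile acids and steroid sulfates, was at 8.14, 7.67 and 7.64 at 48 h, against 10.85, 10.45 and 10.57 in sham, 7.0-fold lower (log2 difference -2.81 ± 0.46 SE, adjusted p = 0.0319). Its 24 h values, 9.10, 7.12 and 8.08, overlapped those at 48 h. Its partner subunit Slc51b read 8.91, 9.02 and 8.97 at 48 h, against 9.96, 9.70 and 9.03 in sham and did not pass (adjusted p = 0.269). Slc22a6, the organic anion transporter OAT1 that takes up para-aminohippurate and many drugs, was at 12.59, 12.62 and 12.39 at 48 h, against 12.97, 13.02 and 13.26 in sham, 1.46-fold lower. At 24 h it was at 13.05, 13.24 and 13.08, and 48 h minus 24 h was -0.59 ± 0.10 (SE, adjusted p = 0.0431). Slc22a2, the organic cation transporter OCT2, was at 11.95, 11.83 and 11.63 at 48 h, against 12.43, 12.30 and 12.46 in sham, 1.51-fold lower, and here the 24 h kidneys (11.96, 11.78 and 11.96) overlapped the 48 h kidneys. Slc22a30, an organic anion transporter-like gene, was at 12.30, 12.19 and 12.13 at 48 h, against 13.15, 13.35 and 13.24 in sham, 2.05-fold lower. It belongs to a cluster of closely related genes, so cross-hybridisation is possible. The organic anion transporting polypeptides Slco1a6 and Slco3a1 were 1.58-fold and 1.66-fold lower. Slco1a1, of the same family, had a log2 difference of -1.39 ± 0.28 (SE, adjusted p = 0.0512), just outside the threshold, with all 48 h arrays below all sham arrays. The apical pumps did not pass. Abcg2 was at 14.04, 14.14 and 14.24 at 48 h, against 14.02, 14.16 and 14.17 in sham, and Abcc4 and Abcb1b had positive differences of 0.53 and 1.22 (adjusted p = 0.120 and 0.123). Each of the 6 calls was lost without some array, with adjusted p reaching 0.111 without 48 h array B for Slc51a and 0.111 without 48 h array C for Slc22a6. It was 0.107 without sham array A for Slc22a2 and 0.0859 without sham array B for Slc22a30. The value was 0.107 without sham array B for Slco1a6 and 0.117 without sham array A for Slco3a1.

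**Figure D4:**
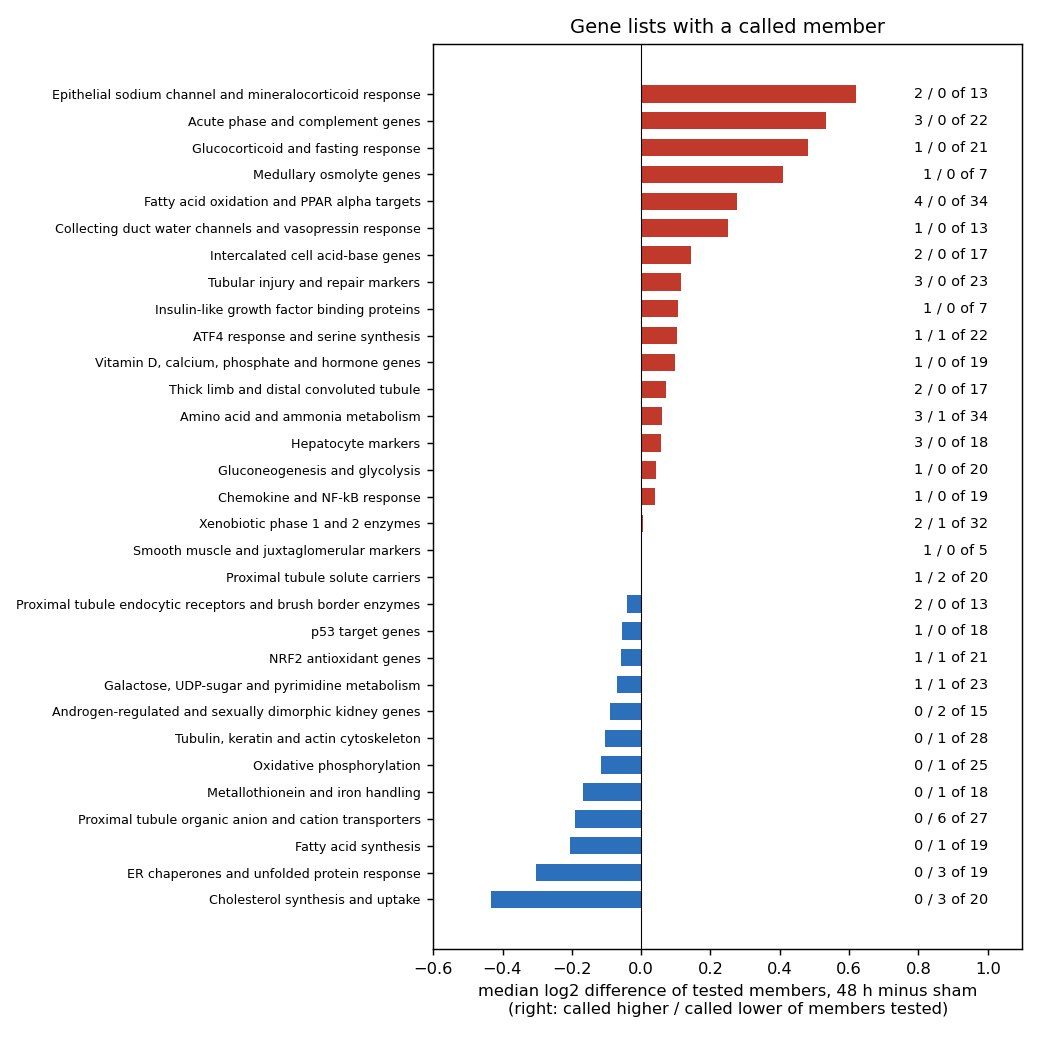
Median log2 difference (48 h minus sham) of the tested members of each gene list that holds a called member, with the number called higher and called lower of the members tested at the right. Cholesterol synthesis has the lowest median and the sodium channel list the highest, and the organic anion and cation transporters hold the most calls, 6 lower of 27.

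Other proximal carriers moved in both directions. Of 20 solute carriers 1 rose and 2 fell, where 1.31% of all genes tested were called higher and 1.46% lower. Slc7a9, the light chain of the cystine and dibasic amino acid carrier, was at 13.43, 13.55 and 13.60 at 48 h, against 12.73, 13.0 and 12.99 in sham, 1.54-fold higher. Slc17a3, a urate and organic anion carrier of the SLC17 family, was at 13.10, 13.14 and 12.86 at 48 h, against 13.96, 13.69 and 14.15 in sham, 1.86-fold lower. Slc5a8, the sodium-coupled monocarboxylate carrier for lactate, was at 12.21, 12.29 and 12.61 at 48 h, against 13.24, 13.24 and 13.26 in sham, 1.83-fold lower. Of 13 endocytic receptors and brush border enzymes 2 rose. Cubn, the cubilin receptor for albumin and the intrinsic factor complex, was at 13.55, 13.59 and 13.48 at 48 h, against 12.87, 12.94 and 12.96 in sham, 1.53-fold higher. Folr1, the folate receptor, was at 13.28, 13.44 and 13.44 at 48 h, against 13.03, 12.93 and 13.08 in sham, 1.30-fold higher. Lrp2, the megalin partner of cubilin, was at 14.05, 13.83 and 13.64 at 48 h, against 13.70, 13.94 and 13.54 in sham and did not pass (adjusted p = 0.901). The groups overlapped for Lrp2 and were apart for Cubn and Folr1. Without 1 array the adjusted p reached 0.108 without 48 h array B for Slc7a9 and 0.0870 without sham array A for Slc17a3. It was 0.114 without 48 h array B for Slc5a8 and 0.137 without 48 h array B for Cubn. The value was 0.127 without 48 h array B for Folr1.

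Of 17 thick limb and distal tubule genes 2 were called, Wnk4 and Egf, both higher, where 1.31% of all genes tested were called higher. Wnk4, a kinase that controls the thiazide-sensitive cotransporter, was at 10.88, 10.85 and 10.74 at 48 h, against 9.61, 9.59 and 9.45 in sham, 2.42-fold higher (log2 difference 1.27 ± 0.09 SE, adjusted p = 0.00454), and it remained called without any 1 array. At 24 h it read 10.74, 10.45 and 10.66. Egf, the growth factor that the distal tubule makes, was at 13.47, 13.76 and 13.87 at 48 h, against 12.98, 13.08 and 13.05 in sham, 1.58-fold higher. The cotransporter genes themselves did not pass: Slc12a3, of the distal tubule, was at 11.61, 12.19 and 12.72 at 48 h, against 11.41, 11.59 and 10.53 in sham (adjusted p = 0.227). Slc12a1, of the thick limb, was at 13.96, 14.41 and 14.14 at 48 h, against 14.01, 14.14 and 13.86 in sham (adjusted p = 0.654). Slc12a3 was higher on every 48 h array than on any sham array but spread by more than 1 unit within each group, whereas the groups of Slc12a1 overlapped.

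The epithelial sodium channel list had the highest median of all lists with a call, 0.62, with 2 of 13 members called, both higher, and 6 members above all sham arrays. Over all genes tested 1.31% were called higher and 11.5% lay above all sham arrays. Scnn1a, the alpha subunit of the channel, was at 9.64, 9.41 and 9.71 at 48 h, against 8.33, 8.65 and 8.89 in sham, 1.95-fold higher (log2 difference 0.96 ± 0.17 SE, adjusted p = 0.0393). Scnn1b, the beta subunit, was at 7.36, 8.0 and 8.18 at 48 h, against 6.76, 6.0 and 6.49 in sham and just missed the threshold (log2 difference 1.43 ± 0.28 SE, adjusted p = 0.0506). Scnn1g, the gamma subunit, was at 8.21, 8.38 and 8.11 at 48 h, against 7.84, 8.07 and 7.62 in sham (adjusted p = 0.162). All 3 subunits had their 48 h arrays above all sham arrays, with the closest groups in Scnn1g. At 24 h Scnn1a read 9.92, 9.58 and 9.51. Scnn1b read 8.24, 7.72 and 7.73 at 24 h and Scnn1g 8.85, 8.65 and 8.68. Hsd11b2, which protects the mineralocorticoid receptor by inactivating corticosterone, was at 12.37, 12.51 and 12.39 at 48 h, against 11.99, 11.76 and 11.46 in sham, 1.61-fold higher. Sgk1, the kinase that keeps the channel at the membrane, was at 12.75, 12.55 and 14.36 at 48 h, against 11.91, 11.95 and 11.85 in sham, and did not pass (adjusted p = 0.182), array C at 48 h standing far above the other arrays. Adjusted p for Scnn1a reached 0.119 without 48 h array C, for Hsd11b2 0.136 without 48 h array B and for Egf 0.122 without 48 h array B.

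Single water channel, osmolyte and acid-base genes rose. Of 13 genes of water channels and vasopressin response 1 was called, where 2.77% of all genes tested were. Aqp1, the water channel of the proximal tubule and thin descending limb, was at 13.47, 13.69 and 13.68 at 48 h, against 12.62, 12.72 and 12.98 in sham, 1.79-fold higher, and the 24 h kidneys, at 13.68, 13.46 and 13.48, overlapped them. Aqp2, the vasopressin-regulated channel of the collecting duct, was at 9.01, 10.19 and 9.02 at 48 h, against 8.61, 8.53 and 8.12 in sham, above sham on every array but spread too widely to pass (adjusted p = 0.423). Aqp3, its basolateral partner, was at 10.88, 10.89 and 10.76 at 48 h, against 10.41, 10.67 and 10.37 in sham (adjusted p = 0.320). Of 17 intercalated cell genes, Atp6v1b1, the B1 subunit of the proton pump, was at 8.15, 7.53 and 7.67 at 48 h, against 6.41, 6.16 and 6.15 in sham, 2.91-fold higher. Rhcg, an ammonia channel, was at 9.28, 9.42 and 9.37 at 48 h, against 8.5, 8.68 and 8.91 in sham, 1.58-fold higher. The other intercalated markers Slc4a1, Slc26a4 and Foxi1 had differences of 0.01, 0.29 and 0.16 and did not pass. Slc6a6, the taurine carrier and 1 of 7 osmolyte genes, was at 11.75, 11.67 and 12.06 at 48 h, against 10.58, 10.65 and 11.14 in sham, 2.06-fold higher. Adjusted p reached 0.0919 without sham array B for Aqp1 and 0.0522 without sham array B for Atp6v1b1. It was 0.122 without 48 h array B for Rhcg and 0.108 without sham array B for Slc6a6.

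Of the cholesterol synthesis and uptake genes 3 of 20 tested fell and none rose. All 20 had a negative difference, with a median of -0.43, and 9 had all 48 h arrays below all sham arrays. Over all genes tested 1.46% were called lower and 15.6% lay below all sham arrays. Idi1 (chr13:8885606-8892396), the isopentenyl diphosphate isomerase, was at 11.38, 10.34 and 10.34 at 48 h, against 13.0, 12.87 and 12.22 in sham, 4.02-fold lower (log2 difference -2.01 ± 0.36 SE, adjusted p = 0.0388). Mvd, the mevalonate diphosphate decarboxylase of the preceding step, was at 7.53, 7.31 and 7.14 at 48 h, against 8.24, 8.03 and 8.05 in sham, 1.72-fold lower. Nsdhl, a sterol dehydrogenase late in the pathway, was at 10.16, 9.99 and 10.21 at 48 h, against 11.02, 10.90 and 10.57 in sham, 1.64-fold lower. Hmgcs1, the synthase at the pathway's entry, was at 14.48, 14.08 and 13.90 at 48 h, against 14.91, 14.78 and 14.92 in sham and did not pass (adjusted p = 0.0769). Nor did Cyp51 (difference -0.50, adjusted p = 0.172) or Insig1 (difference -0.05, adjusted p = 0.969). In the 24 h kidneys Idi1 was at 10.13, 9.63 and 10.39, overlapping the 48 h kidneys. A second probe set of Idi1 gave -1.84 (adjusted p = 0.0989). Adjusted p reached 0.130 without 48 h array B for Idi1 and 0.129 without 48 h array B for Mvd. It was 0.117 without sham array B for Nsdhl.

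The 3 called genes share a short motif upstream of their starts. Genes of this pathway are known to be driven by SREBP-2 together with the CCAAT-binding factor NF-Y, and their 250 bases before the RefSeq start (GRCm38.p6) are shown with every CCAAT, or ATTGG on the other strand, in capitals. The windows lie at chr13:8885356-8885605 (plus strand), chr8:122443423-122443672 (minus strand) and chrX:72918271-72918520 (plus strand).
Idi1: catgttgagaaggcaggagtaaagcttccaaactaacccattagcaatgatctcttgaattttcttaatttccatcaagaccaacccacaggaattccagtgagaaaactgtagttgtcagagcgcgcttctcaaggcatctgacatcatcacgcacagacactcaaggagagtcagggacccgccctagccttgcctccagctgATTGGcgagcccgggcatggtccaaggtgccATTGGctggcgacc
Mvd: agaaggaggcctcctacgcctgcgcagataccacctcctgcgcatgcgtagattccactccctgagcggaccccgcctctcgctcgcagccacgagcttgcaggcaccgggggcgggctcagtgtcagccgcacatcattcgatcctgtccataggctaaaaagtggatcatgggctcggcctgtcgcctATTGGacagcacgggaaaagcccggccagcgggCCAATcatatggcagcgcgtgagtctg
Nsdhl: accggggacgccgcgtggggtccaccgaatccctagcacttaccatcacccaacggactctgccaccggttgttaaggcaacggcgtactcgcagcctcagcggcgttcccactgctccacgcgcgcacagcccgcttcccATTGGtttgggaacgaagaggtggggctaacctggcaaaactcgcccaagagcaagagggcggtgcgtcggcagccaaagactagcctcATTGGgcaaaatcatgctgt
Each window holds 2 CCAAT matches. CCAAT in either orientation occurred in 33.8% of 32851 windows of the same length. All 16 genes of the cholesterol list with a window in the table had it. Here and below the 16 are genes while the percentages are of windows, so the figures are in unlike units. TCACNCCAC, a sterol response core searched on both strands, had no match in these 3 windows, a match in a window of 1 of the 16 genes and matches in 1.05% of all windows. The motifs do not overlap each other in these windows.

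Fatty acid oxidation and PPAR alpha target genes gave only upward calls, 4 of 34 tested, with 28 of the 34 above 0 and a median of 0.28. Over all genes tested 1.31% were called higher. Besides Cyp4a14, Acaa1b, a peroxisomal thiolase, was at 14.01, 14.09 and 14.03 at 48 h, against 12.92, 12.87 and 12.88 in sham, 2.22-fold higher, although its close paralog Acaa1a may share the probe set. Acaa2, the mitochondrial thiolase, was at 12.75, 12.73 and 12.83 at 48 h, against 12.10, 12.27 and 12.10 in sham, 1.53-fold higher. Ech1, an auxiliary enzyme for unsaturated fatty acids, was at 14.13, 14.16 and 14.19 at 48 h, against 13.70, 13.46 and 13.73 in sham, 1.44-fold higher. Cpt1a, the carnitine step at the mitochondrial membrane, was at 11.76, 11.85 and 12.38 at 48 h, against 11.38, 11.85 and 11.88 in sham, and its groups overlapped (adjusted p = 0.693). Pdk4, which shuts off pyruvate oxidation, was at 7.99, 8.78 and 11.21 at 48 h, against 7.82, 5.92 and 9.36 in sham. Angptl4, a secreted lipase inhibitor, was at 8.77, 9.32 and 11.67 at 48 h, against 7.24, 7.32 and 10.19 in sham. Neither passed (adjusted p = 0.469 and 0.425), and array C was the highest of its group for both genes, in the 48 h and in the sham kidneys. Adjusted p reached 0.105 without 48 h array B for Acaa1b and 0.0690 without 48 h array B for Acaa2. It was 0.105 without 48 h array B for Ech1.

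On the synthesis side, Me1, the malic enzyme that supplies NADPH, was at 12.37, 12.36 and 12.37 at 48 h, against 13.02, 13.0 and 13.15 in sham, 1.61-fold lower (log2 difference -0.69 ± 0.06 SE, adjusted p = 0.00786). It was the only call among 19 fatty acid synthesis genes and 1 of 2 among 21 NRF2 target genes. The share called over all genes tested was 2.77%. Cbr1, a carbonyl reductase on the NRF2 list, was at 9.54, 9.99 and 9.73 at 48 h, against 8.97, 8.41 and 8.17 in sham, 2.36-fold higher, in the opposite direction to Me1. Pcx, pyruvate carboxylase, was at 13.51, 13.34 and 13.49 at 48 h, against 12.81, 12.78 and 13.10 in sham, 1.47-fold higher, and was the only call among 20 genes of gluconeogenesis and glycolysis. Adjusted p reached 0.134 without 48 h array B for Cbr1 and 0.117 without sham array A for Pcx, while Me1 stayed called.

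Amino acid enzymes were called in both directions, 3 of 34 higher and 1 lower. The shares over all genes tested were 1.31% higher and 1.46% lower. Kynu is described above. Prodh2, the hydroxyproline dehydrogenase, was at 10.52, 10.24 and 10.14 at 48 h, against 9.32, 9.28 and 9.21 in sham, 2.04-fold higher. Glul, glutamine synthetase, was at 14.05, 14.13 and 14.33 at 48 h, against 13.48, 13.60 and 13.58 in sham, 1.53-fold higher. At 24 h the values were 9.37, 8.91 and 9.24 for Prodh2 and 13.47, 13.24 and 13.32 for Glul, and 48 h minus 24 h was 1.12 ± 0.14 (SE, adjusted p = 0.0250) for Prodh2 and 0.83 ± 0.09 (SE, adjusted p = 0.0224) for Glul. Odc1, ornithine decarboxylase of polyamine synthesis and an androgen-dependent gene of the male mouse kidney, was at 15.33, 14.94 and 14.83 at 48 h, against 15.98, 15.93 and 15.95 in sham, 1.89-fold lower. Its less bright probe sets gave larger falls of -2.42 (adjusted p = 0.00800) and -1.54 (adjusted p = 0.0140), against -0.92 for the reported set. Cyp2j13, also on the list of androgen-regulated and sexually dimorphic genes, was at 11.01, 11.11 and 11.15 at 48 h, against 12.12, 12.28 and 12.56 in sham, 2.35-fold lower, so 2 of the 15 tested members of that list fell and none rose. Of 22 ATF4 response and serine synthesis genes tested 1 rose, Sesn2, given with the p53 targets below, and 1 fell, Shmt2, the mitochondrial serine hydroxymethyltransferase, 1.29-fold lower. Adjusted p reached 0.0919 without sham array B for Prodh2 and 0.0922 without sham array A for Glul. It was 0.0881 without sham array B for Odc1 and 0.0866 without sham array B for Cyp2j13. The value was 0.147 without 48 h array B for Shmt2.

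Of the chaperones of the endoplasmic reticulum 3 of 19 tested fell and none rose, with 18 of 19 below 0 and a median of -0.30. Over all genes tested 1.46% were called lower. Hsp90b1, the reticulum's HSP90, was at 13.37, 13.11 and 12.82 at 48 h, against 14.01, 13.93 and 14.01 in sham, 1.84-fold lower. Pdia3, a disulfide isomerase for glycoproteins, was at 12.0, 11.95 and 11.94 at 48 h, against 12.74, 12.62 and 12.64 in sham, 1.63-fold lower. Canx, the lectin chaperone calnexin, was at 13.55, 13.65 and 13.63 at 48 h, against 13.91, 13.83 and 13.92 in sham, 1.21-fold lower. Calr, the soluble counterpart of calnexin, was at 13.76, 13.47 and 13.24 at 48 h, against 14.27, 14.07 and 14.27 in sham and missed the threshold (adjusted p = 0.0554). At 24 h Pdia3 read 12.99, 12.64 and 13.05, and 48 h minus 24 h was -0.93 ± 0.10 (SE, adjusted p = 0.0224). A second, much dimmer probe set of Pdia3 gave 0.01 (adjusted p = 0.948). Hspa5, the lead gene of the unfolded protein response, was at 12.72, 12.62 and 12.07 at 48 h, against 12.97, 13.25 and 12.84 in sham (adjusted p = 0.298). Adjusted p reached 0.147 without 48 h array B for Hsp90b1 and 0.0988 without sham array A for Pdia3. It was 0.114 without sham array A for Canx.

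Markers of tubular injury were called for 3 of 23 members, all higher, where 1.31% of all genes tested were called higher. Of these, Fgg and Fgb are also counted on the hepatocyte and acute-phase lists. The best known injury markers were not called. Havcr1, which encodes the injury marker KIM-1, was at 2.90, 2.90 and 3.34 at 48 h, against 3.11, 2.90 and 2.90 in sham, near the table's lowest value throughout (adjusted p = 0.809). Lcn2, which encodes NGAL, was at 7.38, 6.46 and 5.31 at 48 h, against 4.62, 4.46 and 2.70 in sham, above sham on every array but widely spread within each group, and it did not pass (adjusted p = 0.122). At 24 h it read 8.77, 9.39 and 7.90. Lgals3, galectin 3, was at 10.78, 11.08 and 10.97 at 48 h, against 9.96, 9.68 and 9.51 in sham, 2.35-fold higher. Fgg, the fibrinogen gamma chain, was at 8.99, 8.97 and 9.05 at 48 h, against 8.40, 8.27 and 8.03 in sham, 1.70-fold higher. At 24 h it read 9.65, 9.71 and 9.89, and 48 h minus 24 h was -0.75 ± 0.10 (SE, adjusted p = 0.0295). Fgb, the beta chain, was at 3.51, 3.09 and 3.14 at 48 h, against 2.38, 2.57 and 2.57 in sham, near the lowest value in the sham kidneys and at least 1.68-fold higher. Cdkn1a, the p53 target p21, was at 6.40, 6.45 and 6.87 at 48 h, against 6.38, 6.45 and 6.36 in sham (adjusted p = 0.649). Of the 18 p53 targets tested 1 passed, Sesn2, a stress-induced regulator of mTORC1, at 9.15, 9.04 and 9.54 at 48 h, against 7.84, 7.84 and 8.40 in sham (2.31-fold higher). Adjusted p reached 0.0919 without sham array B for Lgals3 and 0.0881 without sham array B for Fgg. It was 0.121 without sham array A for Fgb and 0.103 without sham array A for Sesn2.

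Of 22 acute-phase and complement genes 3 rose and none fell, with a median of 0.53. There were 18 above 0 and 4 below, and 8 had all 48 h arrays above all sham arrays. The shares over all genes tested were 1.31% called higher and 11.5% above all sham arrays. The 3 called genes were the fibrinogen chains Fgb and Fgg, and C2, a component of the classical complement pathway. C2 was at 9.21, 9.23 and 9.33 at 48 h, against 7.79, 7.97 and 8.17 in sham (2.43-fold higher). Both further C2 probe sets passed too, with differences of 1.16 (adjusted p = 0.0299) and 1.15 (adjusted p = 0.0278). Saa1, serum amyloid A, did not pass the level filter and was not tested. Tnfaip2, an NF-kB-induced gene, was at 8.77, 8.86 and 8.70 at 48 h, against 8.46, 8.26 and 8.29 in sham (1.36-fold higher), the only call among 19 chemokine and NF-kB genes tested. Of the 33 on the array 16 stayed within 1 unit of the lowest value on all 9 kidney arrays. By limma none of 18 macrophage, 3 neutrophil, 5 lymphocyte, 18 endothelial or 23 fibroblast and matrix genes tested was called, while 1, 0, 0, 3 and 2 of them had an unadjusted p under 0.05 and the rank product called 0, 0, 0, 0 and 1. For neutrophils 9 of 11 markers on the array stayed within 1 unit of the lowest value, and the summed level of the macrophage list was 12.85, 13.32 and 12.89 in the 48 h kidneys and 13.05, 13.13 and 12.93 in the sham kidneys. C2 stayed called without any 1 array, and for Tnfaip2 the adjusted p reached 0.149 without 48 h array B.

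Hormone and detoxification genes added single calls. Igfbp1, a binding protein that restrains insulin-like growth factors and is induced by fasting, was at 10.36, 10.13 and 10.34 at 48 h, against 8.32, 8.45 and 9.28 in sham, 3.01-fold higher, and was the only call among 21 glucocorticoid and fasting genes, 19 vitamin D, mineral and hormone genes and 7 such binding proteins tested. The 24 h kidneys lay below the sham kidneys, at 7.75, 7.27 and 7.72, and 48 h minus 24 h was 2.69 ± 0.26 (SE, adjusted p = 0.0175). The vitamin D pair did not pass: Cyp27b1, which activates vitamin D, was at 7.43, 5.82 and 8.05 at 48 h, against 2.37, 4.99 and 5.32 in sham (adjusted p = 0.254). Cyp24a1, which inactivates it, was at 7.14, 7.91 and 7.15 at 48 h, against 9.88, 9.09 and 8.77 in sham (adjusted p = 0.0604). The arrays of both genes were separate between groups, with opposite signs, and Kl, the FGF23 co-receptor klotho, did not pass (difference 0.00, adjusted p = 1.00). Among 32 xenobiotic enzymes 2 rose and 1 fell, where 2.77% of all genes tested were called. Cyp2d22, a cytochrome P450, was at 8.07, 8.17 and 8.5 at 48 h, against 6.78, 6.92 and 6.69 in sham, 2.73-fold higher, and Gstk1, a glutathione transferase of mitochondria and peroxisomes, was 1.37-fold higher. A second Cyp2d22 set gave a larger rise, 2.93 (adjusted p = 0.0125), against 1.45 for the reported set. Ugt2b37, a glucuronosyltransferase, was at 12.24, 12.09 and 12.34 at 48 h, against 13.26, 13.23 and 13.14 in sham, 1.98-fold lower. The cytochrome and glucuronosyltransferase have close paralogs that the probe sets may share. The metallothioneins Mt1 and Mt2 had differences of -0.28 and -0.66 and did not pass (adjusted p = 0.633 and 0.362). Adjusted p reached 0.109 without sham array B for Igfbp1 and 0.0506 without sham array A for Cyp2d22. It was 0.122 without 48 h array B for Gstk1 and 0.153 without 48 h array B for Ugt2b37.

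Pyrimidine metabolism bears on the agent, which is known to trap uridine nucleotides in liver. Of 23 genes of galactose, UDP-sugar and pyrimidine metabolism, Cda, cytidine deaminase, was at 12.83, 12.87 and 12.85 at 48 h, against 12.35, 12.30 and 12.61 in sham (1.35-fold higher). Nt5c3, a pyrimidine 5'-nucleotidase, was at 10.58, 10.58 and 10.58 at 48 h, against 10.93, 11.04 and 10.92 in sham, a log2 difference of -0.38 ± 0.06 (SE, adjusted p = 0.0305). A reading recurs exactly among its 48 h arrays although 24 h array A read lower, at 10.49, so its fall of 1.30-fold is uncertain. The rest did not pass, and the list's median was -0.07. So 1 of the 23 was called higher and 1 lower, where 2.77% of all genes tested were called. Cycs, cytochrome c, was the only call among 25 oxidative phosphorylation genes, at 14.82, 14.81 and 14.86 at 48 h, against 15.31, 15.29 and 15.20 in sham. Of those 25 genes 20 lay below 0 and 5 above, with a median of -0.11. All 48 h arrays lay below all sham arrays for 13 of them and above for 1. That separation downwards held for 15.6% of all genes tested. Of the cytoskeletal, iron and smooth muscle lists 1 gene each passed, namely Tuba4a, an alpha tubulin, 2.04-fold lower, Ireb2, the iron regulatory protein, 1.42-fold lower, and Smtn, smoothelin of contractile smooth muscle, 2.27-fold higher. Of the other Tuba4a probe sets 1 passed with -1.15 (adjusted p = 0.0263) and a dim one gave 0.03 (adjusted p = 0.871). Of 3 other Cycs sets 2 passed, with -0.80 (adjusted p = 0.00759) and -0.32 (adjusted p = 0.0180), and the third gave -1.22 (adjusted p = 0.108). Cycs stayed called without any 1 array, and the adjusted p reached 0.140 without 48 h array B for Cda and 0.102 without 48 h array B for Nt5c3. It was 0.108 without 48 h array B for Tuba4a and 0.137 without 48 h array B for Ireb2. The value was 0.0981 without sham array B for Smtn.

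Several gene groups varied between arrays of one group by more than the groups differed. Among 28 cell cycle genes tested limma called none, although the median was 0.66, 22 lay above 0, 7 had an unadjusted p under 0.05 and the rank product called 8. Mki67, the proliferation marker, was at 7.73, 3.79 and 2.93 at 48 h, against 3.53, 5.48 and 2.42 in sham. Cdc20, of the mitotic checkpoint, was at 10.39, 8.19 and 7.44 at 48 h, against 7.17, 8.11 and 5.48 in sham. Array A at 48 h was the highest of the 9 kidney arrays for Mki67, Top2a, Cdc20 and Rrm2, and sham array B was the highest sham array for all of them. In the 24 h kidneys Mki67 was at 2.27, 2.24 and 2.21, next to the lowest value of the table. Leaving out array A at 48 h turned the Mki67 difference, 1.01 with all arrays, to -0.45. Fat cell markers also differed between arrays: Adipoq, adiponectin, was at 2.21, 11.41 and 9.42 at 48 h, against 8.01, 7.07 and 3.75 in sham. Ucp1, the uncoupling protein of brown fat, was at 7.66, 2.25 and 2.25 in the sham kidneys, 10.95, 2.25 and 2.25 in the 24 h kidneys and 2.25, 2.28 and 2.25 in the 48 h kidneys. Of 6 adipocyte markers tested limma called none, 0 had an unadjusted p under 0.05 and the rank product called 3, and the summed level of the 10 on the array was 16.36, 16.85 and 16.53 at 48 h and 16.82, 16.71 and 16.54 in sham. The part of these array differences in the called genes was not tested, beyond the fits that leave out each array.

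**Figure D5:**
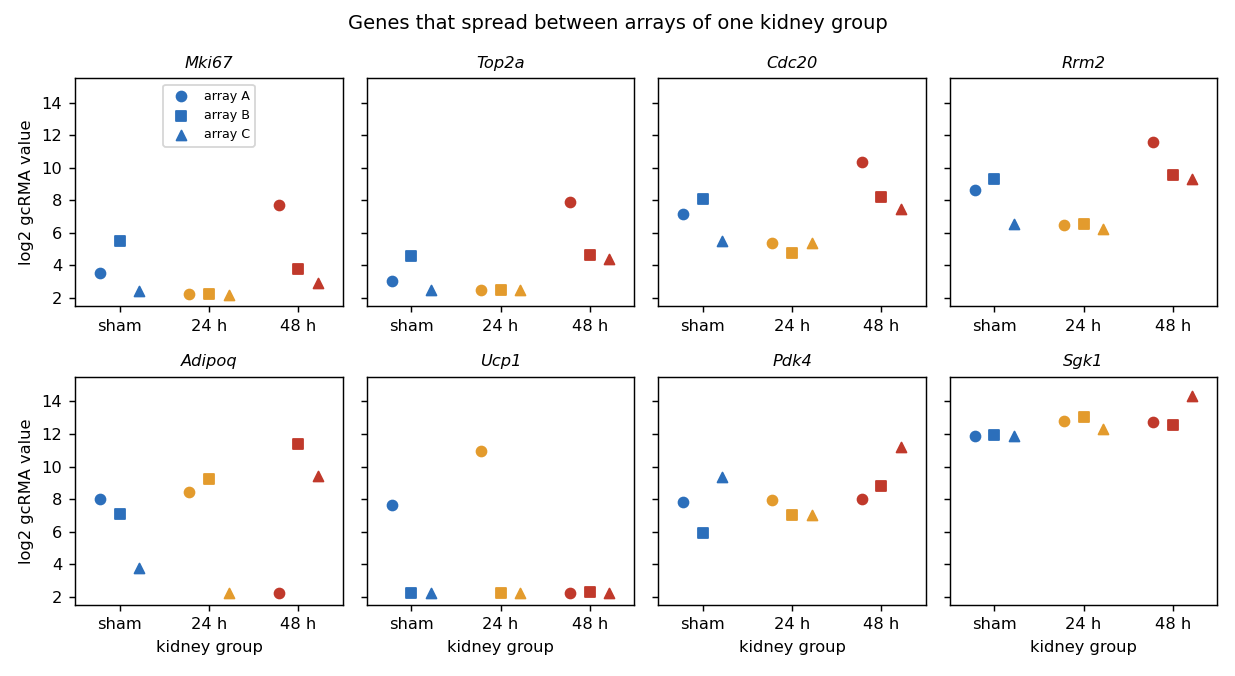
Log2 gcRMA values of 4 cell cycle genes (Mki67, Top2a, Cdc20, Rrm2), 2 fat genes (Adipoq, Ucp1) and 2 hormone-responsive genes (Pdk4, Sgk1) on the 9 kidney arrays, with marker shape for the array letter. Array A at 48 h stands highest for the cell cycle genes, Adipoq ranges from the lowest value to over 11 within the 48 h group, Ucp1 is present in array A of the sham and 24 h groups only, and Sgk1 is highest in array C at 48 h.

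The remaining lists without a call were podocyte (12 tested), heat shock (14), STAT3 and cytokine receptor (19), interferon (25), erythroid (3), adrenal (5), ribosome biogenesis (20), immediate early (16), circadian (15), vasoactive (17) and apoptosis genes (20). Of these 3, 6, 0, 3, 0, 0, 2, 2, 3, 6 and 1 members had an unadjusted p under 0.05, and the rank product called 0, 1, 0, 0, 1, 0, 0, 0, 0, 1 and 0. Their medians ran from -0.09 for heat shock and -0.09 for ribosome biogenesis genes to 0.43 for immediate early genes.

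The 48 h kidneys also differed from the 24 h kidneys, at 194 of the 11990 genes tested (1.62%), and 56 of the 332 genes called against sham were among them. Both time points are set against the same sham arrays, and at 24 h 636 genes passed (5.3%), so the comparisons with sham are not independent. The 24 h values of Hoxd9, Aqp1 and Slc51a overlapped those at 48 h, and those of Serpina1b lay above them. Ackr4, Kynu, Glul and Prodh2 were higher at 48 h than at 24 h, and Mfsd2a, Bcat1, Frzb and Pdia3 lower. Leaving out any 1 array reduced the 194 calls to between 1 and 162.

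The kidney difference from sham was set against the liver difference at 48 h in 1 test over both organs, and passed at 1565 genes (13.1%), among them 154 of the 332. Serpina1b differed by 3.79 in kidney and -0.40 in liver, and kidney minus liver was 4.20 (adjusted p = 3.94e-09). Kynu differed by 2.06 in kidney and -1.27 in liver, and kidney minus liver was 3.33 (adjusted p = 0.000408). For Mfsd2a the values were -2.93 in kidney and 0.47 in liver, with kidney minus liver -3.40 (adjusted p = 0.0258). Lgals3 had the same sign in both organs, 1.23 in kidney and 4.18 in liver, and kidney minus liver was -2.95 (adjusted p = 0.00425). Cyp4a14 differed by 4.61 in kidney and 4.35 in liver, and kidney minus liver, 0.26 (adjusted p = 0.955), did not pass. Liver and kidney arrays may come from the same mice, which the test does not use. After removing group means, like letters of both organs correlated at 0.23, 0.03 and 0.26 in sham, against -0.25 to 0.06 for unlike letters. At 48 h like letters correlated at 0.01, 0.08 and 0.07, against -0.11 to 0.03. A paired comparison of the organs was not tested.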

How the data were processed

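Total RNA of whole kidney and liver was measured on Affymetrix Mouse Genome 430 2.0 arrays, 18 in all. The authors deposited log2 gcRMA values for 45101 probe sets, and GCRMA is named by the submitters' processing notes with no version. Scanner files were not used here, so signal over background is unknown beyond the table's lowest value. Genes were named from GEO's platform annotation, in which 34945 sets name 1 gene, 932 several and 9160 none, and positions come from RefSeq GRCm38.p6.

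Group means of the 9 kidney arrays were fitted with limma 3.58.1 in R 4.3.3 (intensity trend, Benjamini-Hochberg adjusted p under 0.05). Tables were handled with pandas 2.3.3. The test was checked on simulated data with independent noise for each gene and array. Such data hold no effects shared by the genes of 1 array, so the check does not cover the dependence on single arrays. A gene was tested if it lay above the array median in at least 3 of the 9 arrays. The kidney and liver differences were compared in 1 fit of all 18 arrays. A fold is given as a lower bound where the dimmer group holds a reading under 1 unit above the table's lowest value or a reading that recurs exactly. A recurring reading need not be the lowest of its probe set, and for Kynu and Nt5c3 it was not, so no bound is given for them. None is given for Olfml1 either, whose sham readings all differ and lie well above the table's lowest value.

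Genes were named by rule: the 10 largest rises and falls, passing over unnamed clones and predicted genes, up to 4 called members of each list (6 where a list held at least 6), and a fixed panel. Members and lists were chosen with earlier results of these data known. Array letters shared by 48 h and sham kidneys correlated at -0.117 to 0.230 after removing group means, against -0.194 to 0.225 for unlike letters, so they were not treated as pairs. Alternatives covered the filter, the scaling, the choice of probe set, the model and each array left out.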

Additional observations from a re-analysis of the deposited data

Results flagged for a closer look

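The called genes named here are the 70 named by rule and those added because their call held without any 1 array. Of these together, 44 also passed the test of the kidney difference minus the liver difference at 48 h. That test passed at 13.1% of all genes and at 154 of the 332 called. It contains the kidney difference by which these genes were chosen, so a share above that of all genes follows partly from the choice. Of the 44, 16 had a result below 0 and 28 above 0. Kidney minus liver was -3.91 for Csad, -3.40 for Mfsd2a, -3.11 for Fam25c, -2.95 for Lgals3, -2.84 for Slc51a and -2.42 for Cda. On the same log2 scale it was -2.01 for Bcat1, -1.99 for Ccl28, -1.94 for Frzb, -1.72 for Vill, -1.72 for Mtrex and -1.36 for Gria3. It came to -1.27 for Odc1, -1.24 for Serpinc1, -0.96 for Cyp2j13 and -0.84 for Cycs. Above 0, kidney minus liver was 0.51 for Ak7, 0.82 for Acaa2, 0.84 for Egf, 0.86 for Cfap300, 0.93 for Glul and 0.95 for Rhcg. The log2 value was 1.01 for Sesn2, 1.03 for Fgg, 1.19 for Gstk1, 1.24 for Pcx, 1.27 for Slc22a30 and 1.46 for Atp6v1b1. It amounted to 1.68 for Rsph9, 1.69 for Cyp2d26, 1.70 for Hoxd9, 1.74 for Epn3, 1.86 for Cyp2d22 and 1.87 for Kcnj10. Kidney minus liver came to 1.95 for Ackr4, 2.06 for Slc6a6, 2.09 for Olfml1, 2.10 for Apoe, 2.17 for C2 and 2.23 for Prodh2. Above 0, kidney minus liver was 2.35 for Nsdhl, 2.58 for Scnn1a, 3.33 for Kynu and 4.20 for Serpina1b. Some of these genes lay within 1 unit of the table's lowest value in liver, so kidney minus liver there largely repeats the kidney difference. On the liver arrays at 48 h and in sham, Gria3 read 2.21, Ak7 2.25 and Vill 3.15 throughout. Epn3 read 2.21 to 2.22, Cfap300 2.21 to 2.28 and Hoxd9 2.57 to 2.59. Bcat1 read 2.42 to 2.98, Ccl28 2.22 to 3.03, Egf 2.42 to 2.73 and Rhcg 2.22 to 2.94. Kcnj10, further from the lowest value, hardly varied in liver either, at 3.97 to 4.01. Between 39 and 44 of the 44 passed under each alternative, and none changed sign.

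The kidney difference from sham at 48 h also differed from that at 24 h for 21 of the same called genes. Of all genes 1.62% did so, and of the 332 called 56. This test uses the 48 h arrays by which the genes were chosen, so its share is not independent of the choice. Values below 0 mean a lower level at 48 h than at 24 h. Among these, 48 h minus 24 h was -3.58 for Mfsd2a, -1.76 for Bcat1, -1.10 for Frzb, -0.93 for Pdia3, -0.75 for Fgg and -0.59 for Slc22a6. The log2 value was -0.34 for Ahcyl1 and -0.26 for Cycs. Above 0, 48 h minus 24 h was 0.52 for Ak7, 0.63 for Retsat, 0.64 for Slc7a9, 0.76 for Fgb, 0.83 for Glul and 0.84 for Cfap300. On the log2 scale the difference was 1.12 for Prodh2, 1.14 for Cyp2d26, 1.16 for Sesn2, 1.38 for Olfml1, 1.71 for Kynu and 1.93 for Ackr4. Above 0, 48 h minus 24 h was 2.69 for Igfbp1. The number still passing ran from 1 to 21 over the alternatives, with no change of sign, and the lowest was reached with the replicate block and without 48 h array A.

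Beyond the genes compared above, 2414 probe sets that the annotation gives to several genes or to none passed the level filter, and 46 of them were called at 48 h against sham in the same way, 31 higher and 15 lower. They have no single gene name in the annotation used here and are given as counts.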

How the results depend on the processing

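Of the 332 calls, 47.3% were higher at 48 h. The count was 131 with no filter on low values, 201 in a fit of all 18 arrays, 1248 with array weights, 207 by rank product (66 of them shared with limma in the same direction) and 512 with a filter at a value of 5, which was chosen after seeing the data. With array letters as a replicate block it was 49, and 48 of these were among the 332. Letters are not known to pair the samples. Leaving out 1 array gave 29 to 469 calls. Median centring gave 498 calls, of which 36.9% were higher, and with quantile normalization 54.8% were. The other scalings and models gave counts within 1.5 times the reported one. For 48 h against 24 h, 194 calls became 64 with no filter, 4 with the replicate block and 1 to 162 with 1 array left out. For kidney minus liver, 1565 calls (34.4% above 0) became 1389 with median centring (53.7% above 0), which moved the median over all genes to 0.09 from -0.04, and 1090 to 1357 with 1 array left out. No fit that left out an array, and no scaling, turned a called gene round, and averaging all sets of a gene turned 1 of the 332. Of the 70 named calls 28 passed with no filter, 17 with the replicate block, 34 with all 18 arrays, 34 by rank product and 10 to 63 with 1 array left out, and 5 passed under every alternative. Uncalled panel genes that changed sign were Umod (0.040 with the mean of all sets, 0.043 with quantile normalization), Slc12a1 (-0.11 with the mean of all sets) and Kl (-0.00670 with median centring, -0.0021 with array weights). With 1 array left out Havcr1 ran from -0.073 to 0.150, Slc34a1 from -0.017 to 0.165, Mt1 from -0.502 to 0.018, Kl from -0.051 to 0.066 and Mki67 from -0.449 to 1.95. The causes of these moves were not tested. With 3 arrays a group and at least 48.3% of values next to the table's lowest, small differences and dim genes are not resolved.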

Other observations

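The 17 genes called in every fit that left out 1 array were picked after their values were seen. Of these 12 were higher and 5 lower at 48 h, and 8 are described above. Csad, which makes the taurine precursor hypotaurine, was at 11.83, 11.92 and 11.93 at 48 h, against 12.58, 12.65 and 12.70 in sham, 1.68-fold lower, so it moved opposite to Slc6a6, the taurine carrier. In liver Csad differed by 3.16, and kidney minus liver was -3.91 (adjusted p = 0.000931). Mtrex, the helicase that feeds RNA to the nuclear exosome, was at 9.57, 9.60 and 9.35 at 48 h, against 10.96, 10.89 and 10.73 in sham, 2.55-fold lower. Ahcyl1, a partner of the inositol trisphosphate receptor, was 1.40-fold lower.

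Among the higher genes of this kind, Apoe, the lipid carrier apolipoprotein E, was at 12.13, 12.32 and 11.98 at 48 h, against 10.46, 10.32 and 10.53 in sham, 3.26-fold higher, and the groups were far apart. Retsat, the retinol saturase, was at 12.96, 12.86 and 12.97 at 48 h, against 11.78, 11.84 and 11.93 in sham, 2.12-fold higher. Cyp2d26, a cytochrome whose probe sets may also detect close relatives such as Cyp2d22, was at 14.13, 14.15 and 14.35 at 48 h, against 12.60, 12.86 and 12.90 in sham, 2.68-fold higher. Olfml1 was at 7.13, 6.71 and 6.76 at 48 h, against 5.47, 5.47 and 5.35 in sham, 2.71-fold higher, with the 24 h kidneys at 5.44, 5.49 and 5.53. Cfap300, named for cilia and flagella, was at 3.20, 3.0 and 3.26 at 48 h, against 2.28, 2.28 and 2.28 in sham, at least 1.84-fold higher. Ak7, an adenylate kinase, was at 2.96, 2.87 and 2.89 at 48 h, against 2.41, 2.37 and 2.40 in sham, at least 1.42-fold higher.

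For 139 of the 332 called genes the array held other probe sets that passed the level filter, 211 in all. Of these sets 184 had the sign of the reported one, 125 with an unadjusted p under 0.05, and 1 had the opposite sign with an unadjusted p under 0.05.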
